A study of Mus musculus with 16 samples.

Results

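Early proximal tubule (PT) cells of the S1 type were examined in single-cell RNA sequencing libraries from the kidneys of 16 mice. A barcode was kept when it had 200 to 7000 detected genes and at most 50% of its unique molecular identifier (UMI) counts from the mitochondrial genome. It was called an early PT cell when its UMIs of Slc5a2 and Slc5a12 outnumbered those of Slc22a6, Slc5a8 and Slc7a13, when these 5 genes together gave at least 4 UMIs, and when it held 0 UMIs of Pecam1, Pdgfrb and Ptprc. By this rule 6164 of 94436 kept barcodes were early PT cells, or 6.53%, and 7145 were later PT cells in which the later genes outnumbered the early ones. In another 197 barcodes the early and later genes tied, and 402 barcodes that met the early criterion were left out because they held a UMI of an endothelial, stromal or immune gene.

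The study compared BTBR ob/ob mice, a leptin-deficient strain with type 2 diabetes that develops diabetic nephropathy (DN), with BTBR +/+ control mice. Female and male mice were taken at 6 and 12 weeks of age, giving 8 groups of 2 mice, with 1 library per mouse. The study's methods state that all mice, controls included, carried a ROSA26 membrane tdTomato and EGFP reporter and a Cre transgene driven in podocytes, so neither allele distinguishes the groups and neither is directed at the tubule. The ob allele is constitutive, and every cell type of the DN mice carries it, so the model is diabetic, obese and leptin-deficient at once. Kidneys were partly depleted of PT tissue on a Percoll gradient before dissociation, and the samples are labelled as glomerular cells. The PT cells described here are therefore those that passed through the depletion, and their number per library is not their number in the kidney.

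The S1 segment is the first part of the nephron behind the glomerulus. Its cells take up most of the filtered glucose through the apical cotransporter SGLT2, encoded by Slc5a2, and release it to the blood through GLUT2, encoded by Slc2a2. They also recover amino acids, phosphate, bicarbonate and filtered proteins, and they make glucose, ammonia and active vitamin D. The cells run largely on fatty acid oxidation, and in mice many of their metabolic genes differ between males and females.

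The libraries held 10510855 to 125551519 UMIs in all, and 62 to 893 early PT cells. Replicate 1 of each of the 4 female groups stood apart, with 10510855 to 21728793 UMIs per library against 83410397 to 125551519 in the other 12 libraries. These 4 shallow libraries also shared cell barcodes mainly with one another, with 226 shared barcodes over their 6 pairs, 1108 over the 66 pairs of deep libraries and 51 over the 48 mixed pairs. Only 4 of the shared barcodes were early PT cells in both libraries. The median early PT cell had 3000.5 to 17731 UMIs and 1156 to 3613 genes, depending on the library, and a mitochondrial share of 17.6 to 27.1% in control and 15.8 to 30.6% in DN libraries. Transcripts of Xist and of the Y chromosome followed the labelled sex in every group. The mutated gene, Lep, had 0 UMIs in early PT cells and at most 2 UMIs per library among all kept barcodes, so it could not check the genotype.

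Both early genes of the rule were present in nearly all members. Slc5a2 had a UMI in 97.1% of the early PT cells, Slc5a12 in 97.0% and both in 94.1%, and 34.5% of the cells had no UMI of a later gene. At the threshold, 374 cells had exactly 4 UMIs of the rule genes and 549 barcodes just missed it with 3. The cells with exactly 4 were 30.7% of the early PT cells in the shallow libraries and 3.98% in the others. Barcodes just outside the rule were lower in Slc34a1, which encodes the sodium-phosphate cotransporter NaPi-IIa, with 1117 ± 730 CPM (UMIs of the gene scaled to a common total of all UMIs in the cells, mean ± SD over libraries) against 2603 ± 313 CPM in the members. Lrp2 was likewise lower outside, with 517 ± 186 CPM against 1304 ± 543 CPM inside, while Gatm was at 2150 ± 1204 CPM outside and 2388 ± 459 CPM inside.

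Of 8 listed S1 markers that the rule did not use, all but Gsta2 are given here by class. The 8 together summed to 8632 ± 881 CPM in early and 4541 ± 912 CPM in later PT cells. Slc7a7, a basolateral exporter of basic amino acids, was at 289 ± 61.5 CPM in early and 63.7 ± 20.6 CPM in later PT cells (mean ± SD, n = 16 libraries). Slc6a19, the apical carrier of neutral amino acids, was at 282 ± 67.6 and 44.4 ± 15.0 CPM, and Gatm, which makes the creatine precursor guanidinoacetate, was 5.65-fold higher in the early cells. Each of these genes was higher in early cells in 16 of 16 libraries, as were Slc7a8 (5.95-fold), Slc2a2 (2.02-fold), Slc4a4 (1.57-fold) and Slc34a1 (1.52-fold). Lrp2 and Cubn, which encode the protein uptake receptors megalin and cubilin, did not separate the classes and were higher in early cells in 8 and 9 of 16 libraries. Genes of the later segments were low in early cells, among them the organic anion carriers Slc22a7, with 0.208 CPM against 20.6 CPM in later cells, and Slc22a13, with 0.497 against 41.4 CPM. Because the cells were chosen by correlated transcripts, these levels are a description and were not tested.

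**Figure D1:**
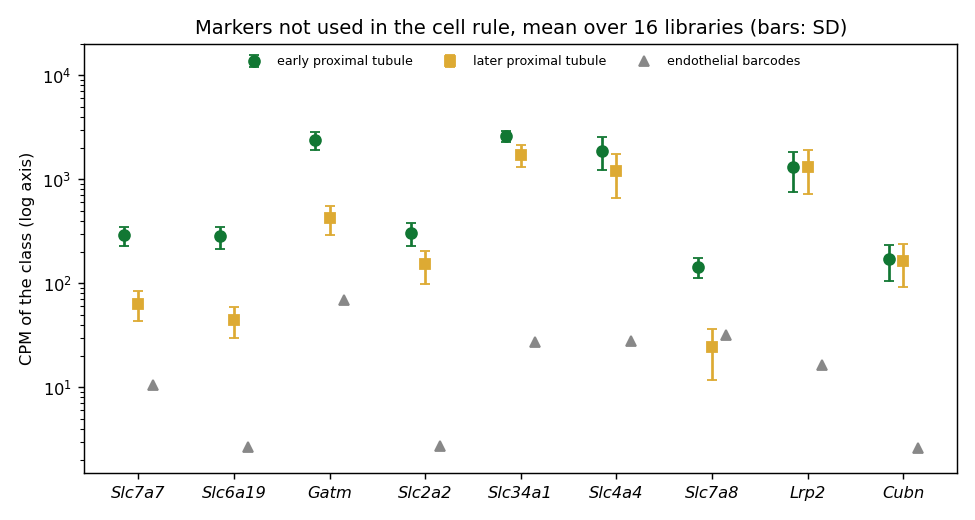
Levels of 9 proximal tubule genes that were not used to choose the cells, as the mean CPM over 16 libraries on a log axis, in early and later PT cells with the SD and in endothelial barcodes for background. Slc7a7, Slc6a19 and Gatm lay at 289, 282 and 2388 CPM in early cells against 63.7, 44.4 and 422 CPM in later cells, whereas Lrp2 and Cubn were close in both.

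The question of cell number was asked first. Early PT cells were 2.52 to 7.13% of kept barcodes in the 8 control libraries (4.65 ± 1.58%, mean ± SD) and 1.74 to 13.0% in the 8 DN libraries (8.35 ± 4.00%). The groups overlapped, although the 4 DN male libraries, at 9.25 to 13.0%, all lay above the control males at 2.52 to 7.13%. The difference of 3.70 percentage points had an exact two-sided permutation p of 0.0355 within sex and age, and 0.0710 after adjustment over the 2 shares tested, and DN was higher in 6 of 8 same-numbered pairs. Within 6 weeks the exact permutation p was 0.278 and within 12 weeks 0.167, where 0.0556 is the smallest the design allows. The share among PT cells alone gave no such difference, at 50.7 ± 13.1% in control and 49.0 ± 6.97% in DN libraries (difference −1.74 points, exact permutation p = 0.645, n = 8 per group). Control females had the highest early shares among PT cells, at 51.5 to 72.1%, and control males the lowest, at 36.4 to 45.1%. The Percoll step acts on these shares directly, and its part in them was not tested. The value in kept barcodes was 1.17 points when barcodes with UMIs of 5 other tubule genes were left out and 0.453 points when each cell was thinned to 1000 UMIs. Fewer cells met the rule in both settings, so the shares themselves were smaller and these points cannot be set directly against 3.70. After thinning 299 control and 477 DN cells were early PT cells, against 2416 and 3748 before.

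**Figure D2:**
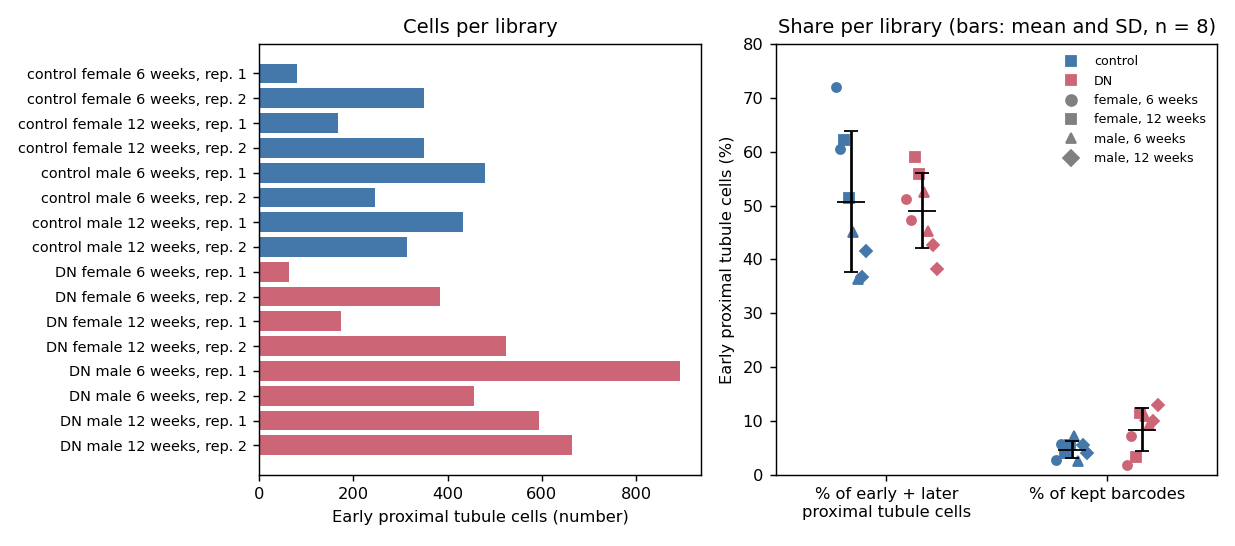
Number of early PT cells in each of the 16 libraries (bars) and their share of kept barcodes in percent by genotype (points, one per library, with mean and SD, n = 8). The libraries held 62 to 893 cells, and the share ran from 2.52 to 7.13% in control and from 1.74 to 13.0% in DN libraries.

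Diabetes was then compared with control in the summed counts of the early PT cells of each mouse. Over both ages 269 of 11990 tested genes differed at an adjusted p under 0.05 (edgeR quasi-likelihood test, Benjamini-Hochberg), or 2.24%, of which 130 (1.08%) were higher and 139 (1.16%) lower in DN. At 6 weeks 52 genes were called (0.434%), 19 of them higher (0.158%) and 33 lower (0.275%), and at 12 weeks 73 genes (0.609%), 43 higher (0.359%) and 30 lower (0.25%). The 2 ages used different mice and shared 26 called genes, which is 26 of the 52 at 6 weeks and 26 of the 73 at 12 weeks, all 26 with the same sign. Mice with the same replicate number deviated together, and a fit with the replicate pair as a block called 171 genes at 6 weeks, 322 at 12 weeks and 688 over both ages, including all 269. Over both ages 1445 of the 11990 genes had an unadjusted p under 0.05 (edgeR), and DESeq2 called 394. The counts per list below stand against these totals, so a few such genes do not set a list apart. Without the 4 shallow libraries 16 genes were called at 6 weeks and 26 at 12 weeks. The single library with the most influence was a male DN mouse at each age. Leaving out replicate 1 of the DN males at 6 weeks left 18 called genes at that age, and leaving out replicate 2 of the DN males at 12 weeks left 19.

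Among the sugar carriers Slc5a10 rose most. Slc5a10, which encodes the sodium-coupled mannose and fructose carrier SGLT5, was at 15.1, 17.7, 3.62 and 18.4 normalised CPM in control females and at 34.1, 26.7, 19.8 and 15.2 in control males (libraries in order of age and replicate, scaled by trimmed mean of M-values). In DN it was at 86.4, 115, 83.5 and 100 in females and at 114, 91.0, 179 and 146 in males. Every DN library lay above every control library. In each of the 4 sex and age strata both DN libraries lay above both controls for 55 of 11990 genes (0.459%) and below for 38 (0.317%). Genes with all 8 DN libraries on 1 side of all 8 controls, here and below, are among these and were picked from called genes. The log2 fold change was 2.08 ± 0.23 (SE) at 6 weeks and 3.04 ± 0.23 at 12 weeks, and over both ages it was 2.56 ± 0.17 (edgeR adjusted p = 1.96e-07), a 5.90-fold increase. The gene lies on chromosome 11 from 61672781 to 61720826 on the minus strand of GRCm38 and was called under every alternative tried. Slc5a10 was higher in the later PT cells, at 121 CPM in control and 282 CPM in DN, and was at 0.560 and 1.84 CPM in endothelial barcodes of the same libraries.

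Other sugar carriers moved less. Slc2a2, the basolateral exit for glucose and fructose, was at 222 to 358 normalised CPM in control (median 239) and at 273 to 449 in DN (median 371), and it rose by a log2 fold change of 0.51 ± 0.11 over both ages (edgeR adjusted p = 0.0251). The groups of Slc2a2 overlapped, but both DN libraries lay above both controls in each of the 4 sex and age strata, as they did for 55 of 11990 genes (0.459%). The call over both ages was lost in 13 of 27 alternative analyses, among them without the 4 shallow libraries (adjusted p = 0.131), with barcodes holding UMIs of 5 other tubule genes left out (0.114) and without any 1 of 8 single libraries (0.0507 to 0.0655). At 12 weeks alone its adjusted p was 0.136, and 0.00647 with the replicate block. Slc2a5, the fructose carrier GLUT5, went from 16.1 to 45.3 (median 25) in control to 27.2 to 101 (median 46.3) in DN, with a log2 fold change of 1.36 ± 0.24 at 6 weeks (edgeR adjusted p = 0.0150) and 0.66 ± 0.22 at 12 weeks (edgeR adjusted p = 0.266, and 0.0294 with the block). Its call at 6 weeks was lost in 6 of 27 alternatives, with the highest adjusted p, 0.245, when barcodes with UMIs of other tubule genes were left out, and its call over both ages in 0 of 27. Of the 9 tested carriers of glucose and fructose, these 3 were higher and 0 lower over both ages, with a median log2 fold change of 0.26 against 0.00 over all tested genes. Slc5a1, the cotransporter SGLT1 of later segments, had an estimate of 0.91 ± 0.32 and did not pass (edgeR adjusted p = 0.195). Slc5a2 itself, which the rule used and which was not tested, ran from 418 to 868 normalised CPM in control (median 610) and from 442 to 1030 in DN (median 701), and its values overlapped throughout.

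**Figure D3:**
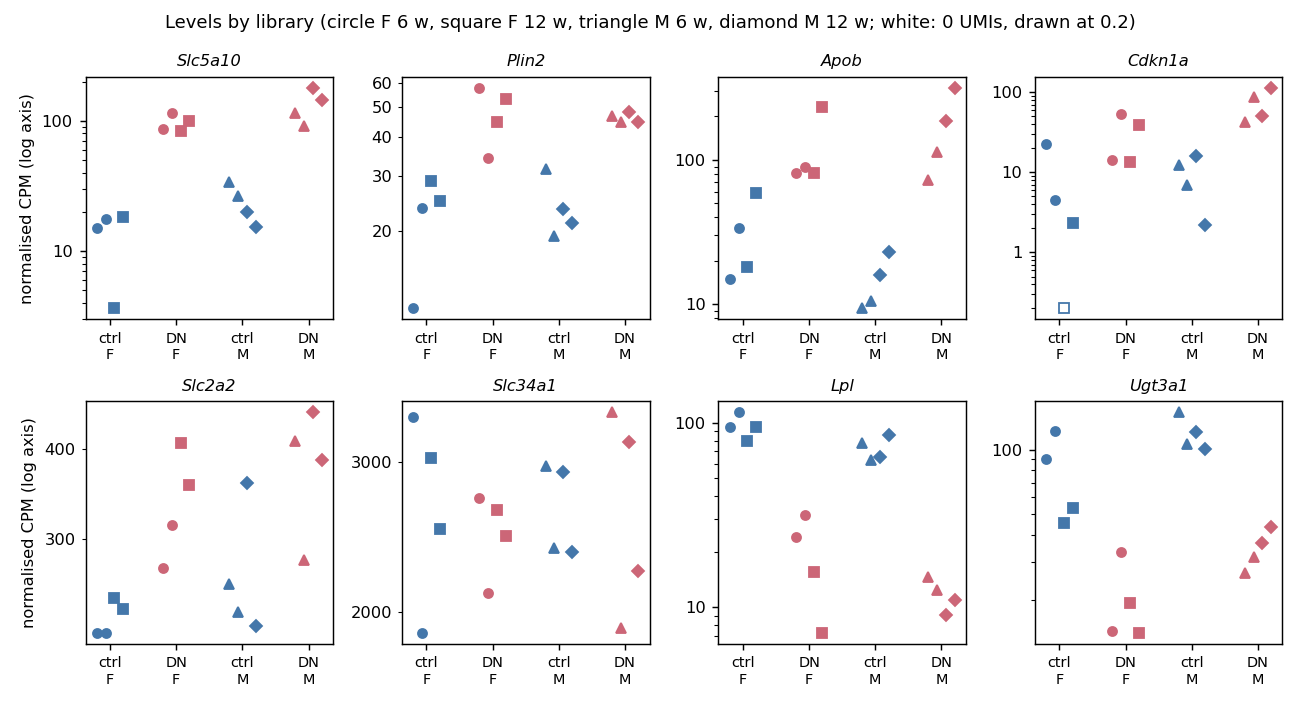
Normalised CPM of 8 genes in the early PT cells of each library on a log axis, by genotype, sex and age, with white symbols for libraries with 0 UMIs. Slc5a10, Plin2 and Apob lay higher in all 8 DN than in all 8 control libraries, Lpl and Ugt3a1 lower, and Slc34a1 overlapped.

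Carriers of other solutes were called in small number. Of 20 tested amino acid carriers 2 were higher in DN and 0 lower over both ages, with a median log2 fold change of 0.11, and the replicate block called 3 higher and 1 lower. Slc43a2, a basolateral exit for neutral amino acids, rose from a median of 116 to 186 normalised CPM (log2 fold change 0.69 ± 0.13, edgeR adjusted p = 0.00844), and Slc38a3, the glutamine carrier SNAT3, from a median of 0.267 to 3.84 (3.36 ± 0.41, edgeR adjusted p = 0.000209). The rise of Slc38a3 rests on 11 UMIs in all control and 195 in all DN libraries. The early markers Slc7a7 and Slc6a19 had estimates of 0.07 ± 0.19 and 0.12 ± 0.13, and neither passed. None of the 28 tested genes of phosphate, sodium, acid-base and water transport was called by edgeR over both ages, 9 had an unadjusted p under 0.05, DESeq2 called 2 and the block 4, and the median was 0.00. Slc34a1, the main phosphate carrier, ran from 1891 to 3388 normalised CPM in control and from 1917 to 3431 in DN, with an estimate of −0.04 ± 0.14 and full overlap. None of the 24 genes of receptor-mediated endocytosis and the lysosome was called by edgeR either, with a median of 0.02, 2 genes at an unadjusted p under 0.05, 1 by DESeq2 and 3 by the block. Lrp2 was at 879 to 2052 normalised CPM in control and 677 to 1524 in DN, with a log2 fold change of −0.45 ± 0.12 (edgeR adjusted p = 0.0638), and it was called with the replicate block (adjusted p = 0.00178). The block also called Fxyd2, the gamma subunit of the sodium pump, lower (adjusted p = 0.0344) and Lamp1, a lysosomal membrane protein, higher (adjusted p = 0.0246).

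Glucose production and breakdown were described next. Of 23 tested genes of gluconeogenesis, fructose metabolism and ammonia formation, 2 were higher in DN and 0 lower, and 19 had estimates above 0 (median 0.22). The replicate block called 7 of them higher. Glud1, glutamate dehydrogenase, ran from 259 to 376 normalised CPM in control (median 330) and from 355 to 582 in DN (median 496), a log2 fold change of 0.58 ± 0.11 (edgeR adjusted p = 0.00759). Tkfc, the triokinase of fructose breakdown, rose from a median of 130 to 182 normalised CPM (0.53 ± 0.12, edgeR adjusted p = 0.0343), a call lost in 13 of 27 alternatives, 10 of them with a single library left out (adjusted p 0.0511 to 0.0998) and 1 with no term for the shallow libraries (0.122). The call for Glud1 was lost with no such term (0.0630). For both genes the highest control libraries overlapped with the lowest DN libraries. Pck1, the cytosolic phosphoenolpyruvate carboxykinase, did not pass over both sexes (0.68 ± 0.21, edgeR adjusted p = 0.130) and was called with the block (0.0323). Within males it was called higher in DN by 2.37-fold, and within control mice it was called 3.67-fold higher in females (edgeR). Its level depended on sex, with 523 to 840 normalised CPM in control males, 941 to 1919 in DN males, 1795 to 2250 in control females and 1645 to 2733 in DN females. Among 17 glycolysis genes edgeR called 1 over both ages, DESeq2 2 and the block 1 higher and 1 lower, and 6 had an unadjusted p under 0.05. The gene called by edgeR was Pdk1, a kinase that holds pyruvate dehydrogenase inactive, with a median of 5.00 in control and 11 in DN (1.32 ± 0.25, edgeR adjusted p = 0.00814, and 0.0896 when early UMIs had to be 3 times the later ones).

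Fatty acid oxidation and the targets of its regulator PPAR alpha made up the largest called group among the lists of function. Of 40 tested genes 14 were higher in DN and 2 lower over both ages, with a median log2 fold change of 0.26. Over all tested genes 1.08% were higher and 1.16% lower. Within males 10 were called higher and 1 lower (median 0.41), and within females 1 higher and 0 lower (median 0.19). Over all tested genes 0.751% were higher and 0.734% lower within males, and 0.05% and 0.0334% within females. The 4 shallow libraries are all female, so these counts do not compare the size of the effect. The direct test of the difference between the sexes called Cyp4a10, Cyp4a14 and Cyp4a12a of this list, and none of them without the 4 shallow libraries. Within control mice 8 of the 40 were higher and 2 lower in females. Eci1, an isomerase of unsaturated fatty acid oxidation, was at 113, 116, 158 and 138 normalised CPM in control females and at 140, 115, 166 and 124 in control males. In DN it was at 178, 186, 276 and 240 in females and at 217, 224, 340 and 288 in males, a log2 fold change of 0.85 ± 0.10 over both ages (edgeR adjusted p = 0.000191). Plin2, which coats lipid droplets, was at 11.3 to 31.8 in control and 34.5 to 57.6 in DN (0.91 ± 0.13, edgeR adjusted p = 0.000735). Neither gene had overlapping groups, a trait of at most 55 of 11990 genes (0.459%) in this direction. Ucp2, an inner mitochondrial membrane carrier, rose from a median of 21.2 to 50.5, and Vnn1, a pantetheinase, from 26.1 to 45.2. Cpt2, Decr1, Ech1, Acot1, Acot2, Angptl4, Cyp4a10, Cyp4a14 and Cyp4a31 were also called higher, with log2 fold changes from 0.46 to 2.48. Cd36, a fatty acid uptake receptor, and Cyp4a12a, a male-biased fatty acid hydroxylase, were called lower. The call for Cd36 was lost in 13 of 27 alternatives (DESeq2 adjusted p = 0.528, 0.143 without the 4 shallow libraries) and that for Cyp4a12a with DESeq2 (0.156). Among the rises, that of Cyp4a14 was lost in 7 of 27 alternatives (highest adjusted p 0.0903, without the 4 shallow libraries). Cd36 was found in control males at 54.2 to 73.8 normalised CPM and in DN males at 0.577 to 40.8, and it was at most 1.21 in any female library.

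Lipid handling outside the mitochondrion moved in both directions. Apob, the structural protein of lipoproteins, ran from 9.38 to 59.0 normalised CPM in control (median 17.0) and from 72.6 to 314 in DN (median 101). Its groups did not overlap, and the log2 fold change was 2.78 ± 0.27 over both ages (edgeR adjusted p = 3.92e-05). Lpl, the lipase that frees fatty acids from circulating lipoproteins, went the other way, from 94.3, 114, 79.6 and 95.2 normalised CPM in control females and 77.3, 63.0, 65.3 and 85.4 in control males to 24.0, 31.6, 15.5 and 7.29 in DN females and 14.6, 12.4, 9.05 and 11 in DN males. The fall, by 2.15 ± 0.20 at 6 weeks and 3.10 ± 0.20 at 12 weeks on the log2 scale, had the smallest adjusted p of the genes compared between DN and control over both ages (2.37e-08, edgeR). In endothelial barcodes of the same libraries Lpl was at 95.8 CPM in control and 186 CPM in DN, the opposite direction. Of 22 tested genes of lipid and sterol synthesis 0 were called by edgeR over both ages (median −0.06), with 5 at an unadjusted p under 0.05, 0 by DESeq2 and 5 by the block.

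Detoxification genes were called in part. Of 37 tested NRF2 targets and glutathione genes 5 were higher and 1 lower in DN, with a median of 0.15, and with the replicate block 9 were higher and 3 lower. Ephx1, the microsomal epoxide hydrolase, rose from a median of 4.03 to 14.3 normalised CPM (1.84 ± 0.24, edgeR adjusted p = 0.000438), and Nqo1, a quinone reductase, from 8.92 to 14.6 (0.73 ± 0.14, edgeR adjusted p = 0.00698). The call for Nqo1 was lost when barcodes with UMIs of 5 other tubule genes were left out (adjusted p = 0.273) and when early UMIs had to be 3 times the later ones (0.0619). Abcc4, an apical efflux pump, and the glutathione transferases Gstm1 and Mgst1 were also higher. Ggt1, the brush border enzyme that splits glutathione, was lower, at 165 to 300 normalised CPM in control and 107 to 251 in DN (−0.61 ± 0.10, edgeR adjusted p = 0.00204). Ugt3a1, a UDP-glycosyltransferase that belongs to none of the lists, fell from 45.8 to 149 normalised CPM in control (median 104) to 14.1 to 43.5 in DN (median 29.2) with no overlap (−1.81 ± 0.12, edgeR adjusted p = 2.86e-07). Of 35 tested nuclear subunits of oxidative phosphorylation 0 were called by edgeR over both ages, 8 had an unadjusted p under 0.05, DESeq2 called 0 and the block 5, all higher. The estimates were above 0 for 34 of the 35, with a median of 0.17.

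Genes of injury and the p53 response rose in small number. Cdkn1a, which encodes the cell cycle inhibitor p21, was at 22.6, 4.49, 0 and 2.32 normalised CPM in control females and at 12.5, 6.91, 16.1 and 2.18 in control males. In DN it was at 14.4, 54.1, 13.6 and 38.6 in females and at 42.9, 86.4, 50.6 and 113 in males. The DN males lay above all controls and the shallow female libraries overlapped with them, and the log2 fold change over both ages was 3.05 ± 0.37 (edgeR adjusted p = 0.000209). Another 4 p53 targets were called higher out of 16 tested genes of the unfolded protein and p53 responses, namely Ccng1 (median 54.8 to 101 normalised CPM), Phlda3 (1.21 to 6.48), Trp53inp1 (20.4 to 34.6) and Eda2r (0.0967 to 1.49). Of 27 tested injury genes edgeR called 3 over both ages, Cdkn1a, C3 and Sox4, with a median of 0.23 over the list, while DESeq2 called 5 and the block 6 higher and 3 lower. C3, the central complement component, ran from 0.967 to 45.3 in control and from 0 to 173 in DN, and its log2 fold change of 3.62 ± 0.73 passed at 12 weeks (edgeR adjusted p = 0.0331, lost in 12 of 27 alternatives with values up to 0.161) but the 1.58 ± 0.66 at 6 weeks did not (0.653). Over both ages C3 was called in all 27 alternatives, Sox4 was lost when early UMIs had to be 3 times the later ones (0.171), and Eda2r was lost in 3 of 22 (up to 0.0821). Havcr1, which encodes the injury marker KIM-1, was too low to test, at 0 to 1.23 normalised CPM in control and 0 to 3.18 in DN. Of 20 transcription factors of the proximal tubule 0 were called by edgeR over both ages, with a median of −0.13, while 3 had an unadjusted p under 0.05, DESeq2 called 1 and the block 2. Zbtb20, a zinc finger repressor, was 1 of those called with the block (−0.45, adjusted p = 0.0270).

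Hormone-related genes included Cyp27b1, the enzyme that activates vitamin D. It was higher at 6 weeks, with a log2 fold change of 2.42 ± 0.50 (edgeR adjusted p = 0.0406), and had an estimate of 1.00 ± 0.47 at 12 weeks that did not pass (0.533). Of 11 tested genes of the vitamin D, parathyroid hormone and FGF23 response, edgeR called 1 over both ages, Cyp27b1, DESeq2 1 and the block 3 higher and 1 lower, and 4 had an unadjusted p under 0.05. The call of Cyp27b1 by edgeR was lost in 4 of 27 alternatives, with barcodes holding UMIs of 5 other tubule genes left out (adjusted p = 0.173) and without control female replicate 2 at 6 or 12 weeks or DN female 12 weeks replicate 2 (0.0532 to 0.0607). The call at 6 weeks was lost in 12 of 27, with the highest adjusted p, 0.242, without control female 6 weeks replicate 2. Agt, which encodes angiotensinogen, rose from 2.32 to 18.9 normalised CPM in control (median 6.26) to 10.0 to 33.4 in DN (median 24.1), a log2 fold change of 2.11 ± 0.24 (edgeR adjusted p = 0.000191). It was above control in all 4 strata.

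**Figure D4:**
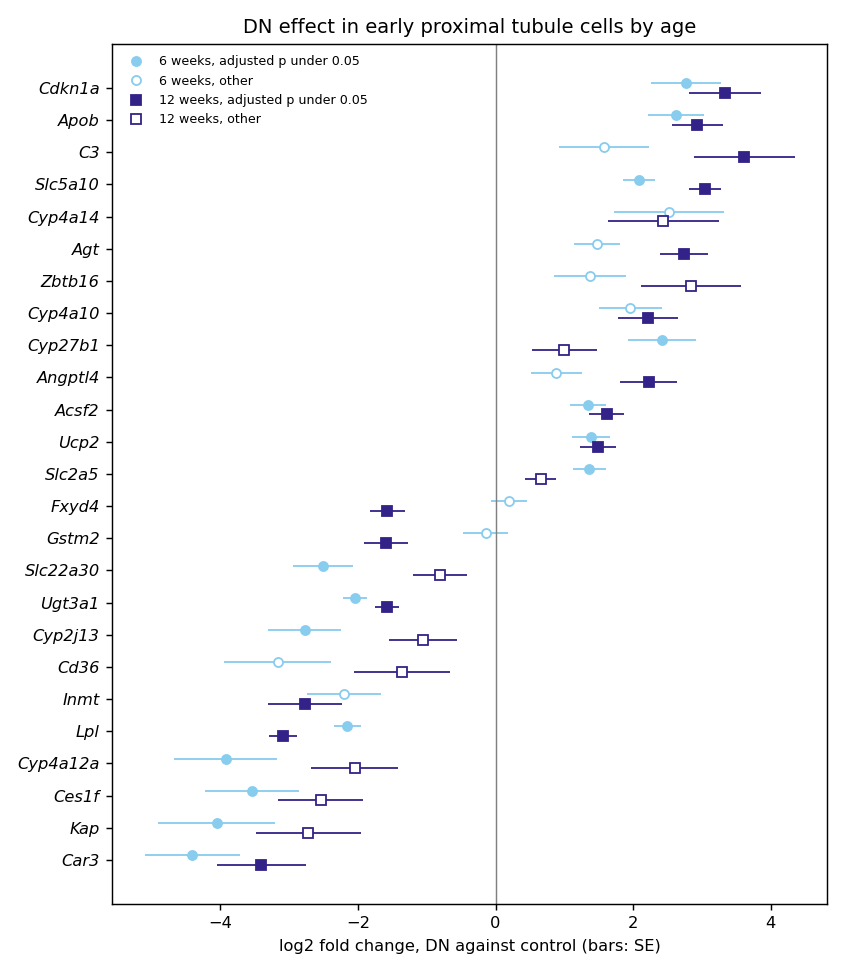
Log2 fold change of DN against control at 6 and 12 weeks, with its SE, for 25 genes named by the DN comparisons, with filled symbols where the adjusted p was under 0.05. Slc5a10, Apob and Cdkn1a lay above 0 and Lpl, Ugt3a1, Car3 and Kap below 0 at both ages, and 0 genes passed the test of the difference between these effects (edgeR).

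The effect of DN was compared between 6 and 12 weeks, to ask whether it grew. No gene of 11990 was called by edgeR (0.0%), 285 had an unadjusted p under 0.05, and DESeq2 called 0 and the block 2. Genes called at 1 age alone, such as Slc2a5, Cyp27b1, C3 and Agt, are therefore not shown to differ between the ages. The comparison of 12 with 6 weeks within control mice likewise gave 0 genes by edgeR, 534 at an unadjusted p under 0.05 and 1 by DESeq2.

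Transcripts of other kidney cells were present in the early PT cells and differed between the groups in part. The 10 listed genes of later PT segments, 3 of which the rule held below the early genes, summed to 1066 ± 450 CPM in the early cells of control (463 to 1610) and to 669 ± 220 CPM in those of DN libraries (355 to 1116). All 5 of them that could be tested had an unadjusted p under 0.05 over both ages, with Acy3 called lower and Cyp4a10 higher by edgeR. Kap, Inmt and Cd36, which were lower in DN, were also more abundant in later than in early cells of control mice, with Cd36 at 196 against 33.4 CPM. The summed level of 4 thick ascending limb genes was 359 ± 237 CPM in control (103 to 785) and 99.2 ± 77.3 CPM in DN (12.4 to 238), and Umod, Slc12a1 and Egf were called lower over both ages with log2 fold changes of −1.74, −1.44 and −1.69. Umod was also lower in endothelial barcodes of DN libraries, at 96.1 against 223 CPM. Immune genes summed to 100 ± 73.3 CPM in control and 161 ± 139 CPM in DN, and endothelial genes to 13.7 ± 11.1 and 12.4 ± 6.38 CPM with Pecam1 at 0 by the rule. Fxyd4, a principal cell gene, was called lower at 12 weeks (−1.57), and this was lost when barcodes with UMIs of 5 other tubule genes were left out (−0.96). The 3 globin genes called lower at 12 weeks rest on control male 12 weeks replicate 1, which held 222 normalised CPM of Hbb-bs against at most 14.4 in any DN library, and without that library the estimate for Hbb-bs was −0.47 and was not called. The genes of the distal convoluted and connecting tubule summed to 1402 ± 1398 CPM in control and 836 ± 478 CPM in DN, those of intercalated cells to 264 ± 161 and 186 ± 161 CPM. Dissociation stress genes summed to 780 ± 133 CPM in control and 807 ± 194 CPM in DN. When barcodes with UMIs of 5 other tubule genes were left out, 4 of the 41 named genes called over both ages were no longer called (Slc2a2, Tkfc, Nqo1 and Cyp27b1), as were 9 of 24 at 6 weeks and 4 of 26 at 12 weeks. That step also removes cells, and the part of the other transcripts as such was not tested.

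Females and males were compared within the control mice, since the genes of this segment are known to be sexually dimorphic. In 360 of 11990 genes (3.0%) the sexes differed, with 128 higher (1.07%) and 232 lower (1.93%) in females (edgeR quasi-likelihood test, Benjamini-Hochberg). Of 11 listed male-biased PT genes 8 were lower in control females. Kap, an androgen-regulated kidney protein, was at 10639, 6972, 11095 and 9850 normalised CPM in control males and at 0 to 47.7 in control females. Car3, a carbonic anhydrase, was at 351, 315, 483 and 303 in control males and at 0 to 10.9 in control females, a call that was lost without control female 12 weeks replicate 2 (log2 difference −1.29). The difference was as complete in the other direction for Cyp4a14, a fatty acid hydroxylase, at 26.5 to 123 in control females and 0 to 0.338 in control males, and for Prlr, the prolactin receptor, at 79.6 to 167 and 5.08 to 10.1. The count of called genes fell without the 4 shallow libraries and without control female replicate 2 at 6 or 12 weeks, settings that left 1 library in a group. Ddx3y and Eif2s3y of the Y chromosome also lost their call in 2 of 26 alternatives, each with 1 library left out. A call lost in such a setting therefore does not show that the difference rests on the library left out.

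The same genes were then followed in the DN mice. Kap fell to 94.1, 396, 350 and 1488 normalised CPM in DN males, against a lowest control male of 6972, a log2 fold change of −4.34 ± 0.52 within males (edgeR adjusted p = 0.000313). Car3 fell to 12.0, 9.75, 22.8 and 16.9 (−4.62 ± 0.27, edgeR adjusted p = 1.73e-07). The DN males still lay above every female library for Kap, and 3 of the 4 did for Car3, where the highest female library was at 10.9. Prlr rose in DN males to 58.7, 20.4, 14.7 and 17.7 (1.75 ± 0.28, edgeR adjusted p = 0.00333), while DN females had 33.6 to 53.9 against 79.6 to 167 in control females, a difference of −1.26 ± 0.28 that did not pass (edgeR adjusted p = 0.181). Within males 178 genes were called (1.48%), 90 higher (0.751%) and 88 lower (0.734%), and within females 10 (0.0834%), 6 higher (0.05%) and 4 lower (0.0334%). The 4 shallow libraries, with 62 to 173 early PT cells against 246 to 893 in the others, are all female. The counts within each sex therefore do not compare the size of the effect. These comparisons within a sex were chosen after the data had been seen, and those within males share their control males with the comparison of the sexes. Of the 11 listed male-biased genes 8 were called lower in DN males (median −1.28) and 0 by edgeR in DN females (median −0.18), and Odc1, ornithine decarboxylase, was lower over both sexes, at 174 to 495 normalised CPM in control and 98.0 to 200 in DN (−0.94 ± 0.12, edgeR adjusted p = 0.000422).

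The difference between the sexes in the effect of DN was tested directly. It passed for 12 of 11990 genes (0.1%), 5 with a higher (0.0417%) and 7 with a lower effect (0.0584%) in females. Cyp4a14 had the largest difference (−6.06 ± 0.65, edgeR adjusted p = 0.00154), having risen in DN males from at most 0.338 to 53.7, 26.1, 12.9 and 20.7 normalised CPM while its DN females, at 52.8 to 234, overlapped with control females. Cyp4a10 (−2.23 ± 0.29), Prlr (−3.01 ± 0.40), Kynu (−3.46 ± 0.41), Ugt1a2 (−4.61 ± 0.80) and Gsta2 (−1.90 ± 0.30) followed the same order, with larger effects in males. Kynu, the kynureninase of tryptophan breakdown, rose from 1.76 to 4.2 normalised CPM in control males to 15.6 to 20.1 in DN males. In the other direction the signed log2 effect was lower in males for Inmt, an indolamine methyltransferase (3.38 ± 0.38), Car3 (3.52 ± 0.53), Cyp4a12a (3.74 ± 0.62), Cyp2e1 (1.85 ± 0.31) and Angptl7 (1.5 ± 0.26). All of these were called lower in DN within males (edgeR), so the lower value in males was a fall and not a weaker effect. The 12th gene was Gm16010. The value for Car3 changed sign with single libraries left out, being −0.66 without control female 12 weeks replicate 2 and −0.35 without DN female 12 weeks replicate 2. Each of these settings left the group with 1 library, a shallow one, so the change does not show that the difference rests on the mouse left out. None of the 11 named genes passed in all 26 alternatives, and each was lost in 2 (Cyp4a14) to 17 (Ugt1a2) of them. For Kap the difference of 2.97 ± 0.79 did not pass (edgeR adjusted p = 0.480). Without the 4 shallow libraries 0 genes passed in edgeR, with 285 at an unadjusted p under 0.05, and 1 gene passed without control female 6 weeks replicate 2 or control female 12 weeks replicate 2.

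**Figure D5:**
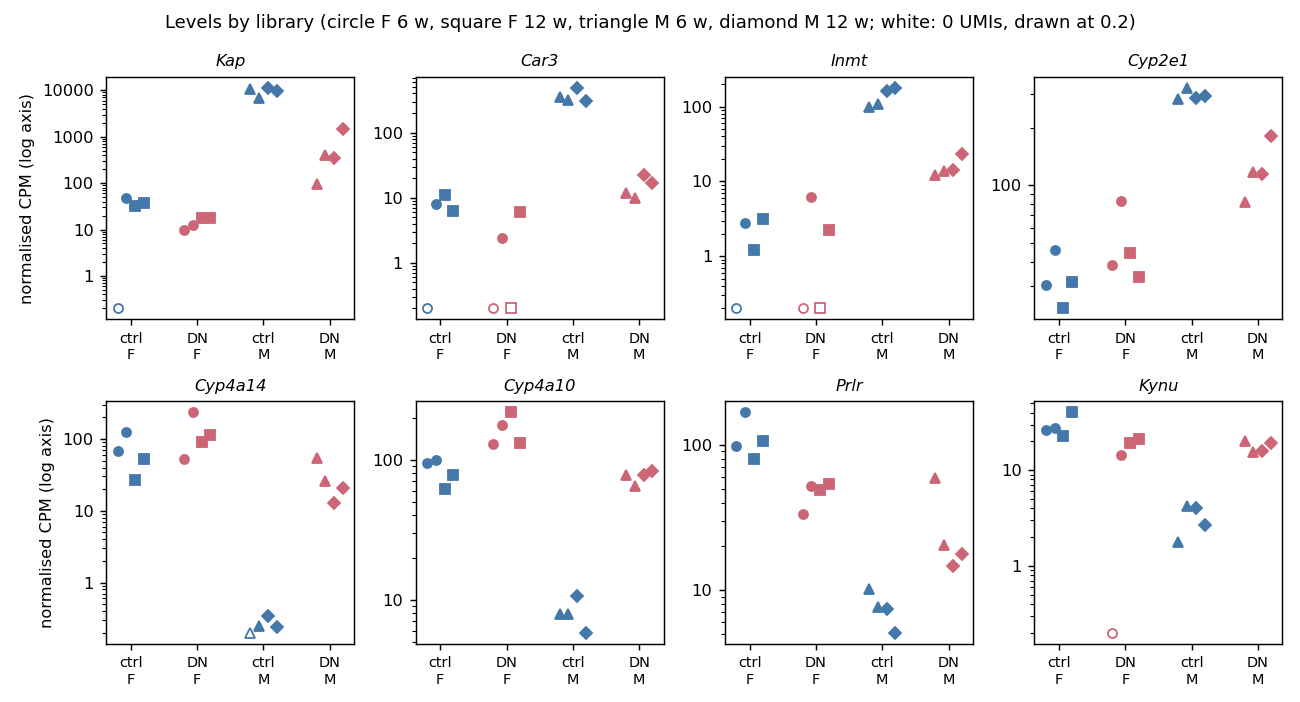
Normalised CPM of 8 sex-dependent genes in the early PT cells of each library on a log axis, by genotype, sex and age, with white symbols for libraries with 0 UMIs. Kap lay at 6972 to 11095 in control males, 94.1 to 1488 in DN males and at most 47.7 in females, and Cyp4a14 at most at 0.338 in control males and at 12.9 to 53.7 in DN males.

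Several of these genes were more abundant in the later PT cells and were also found in endothelial barcodes. In control males Kap was at 69079 ± 15647 CPM in later cells, 9556 ± 1299 CPM in early cells and 944 ± 391 CPM in endothelial barcodes, and in DN males at 25227, 639 and 230 CPM. Inmt was at 731, 137 and 8.22 CPM in these classes in control males and at 456, 16.6 and 3.27 CPM in DN males. Car3 differed, with 359 CPM in early cells, 9.92 CPM in later cells and 1.59 CPM in endothelial barcodes of control males. The part of RNA from other cells in the values of Kap and Inmt was not tested.

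The effect of DN was finally compared between early and later PT cells of the same mice. It differed for 230 of 13098 genes (1.76%), 66 with a higher (0.504%) and 164 with a lower effect (1.25%) in early cells (edgeR quasi-likelihood test with the library as a block). Slc5a10 was higher in DN in both classes, from 19.2 to 116 CPM in early and from 121 to 282 CPM in later cells, and the log2 effect was greater in early cells by 1.29 ± 0.16 (edgeR adjusted p = 3.58e-05). Car3 fell in early cells from 183 to 8.98 CPM and was at 5.26 CPM in control and 22.6 CPM in DN later cells (difference −5.81 ± 0.25, edgeR adjusted p = 1.15e-12). Ugt3a1 fell from 99.3 to 28.3 CPM in early cells and was at 278 and 224 CPM in later cells (−1.41 ± 0.11, edgeR adjusted p = 2.96e-08). Other differences came from the later cells. Gc, the vitamin D binding protein, went from 0.964 to 91.5 CPM in later cells and was at 7.58 and 15.0 CPM in early cells (−5.15 ± 0.41, edgeR adjusted p = 4.90e-08). Trap1, a mitochondrial chaperone, was at 71.3 and 71.5 CPM in early cells and at 216 and 131 CPM in later cells, and Dnase1, a secreted nuclease, at 841 and 804 CPM in early and 680 and 1224 CPM in later cells. Of the named genes Apob also rose more in early cells (1.21 ± 0.23, edgeR adjusted p = 0.00504). Lpl fell further in early than in later cells (−0.96 ± 0.19, edgeR adjusted p = 0.00586). Slc2a5, Acsf2 and Abcc4 had a lower effect in early cells, by 1.61-, 2.17- and 2.86-fold, and Slc5a9 was also called in that direction (edgeR). For Cdkn1a the difference of 0.40 ± 0.25 did not pass.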

How the data were processed

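Per the labels and the study's methods, the authors ran Cell Ranger 3.0.2 on 10x Genomics reads against mm10 and deposited, for each of 16 mice, a matrix of raw UMI counts for 31053 genes. The members and gene lists were chosen with earlier results of these data known. Counts were summed per mouse over early PT cells (at least 10 cells per library) and tested with the quasi-likelihood test of edgeR 4.0.16 (R 4.3.3) after filtering by expression and scaling by trimmed mean of M-values. The model held sex, age, genotype and a term for the 4 shallow libraries, which were told from the others by the barcodes they shared and not by any outcome. The study's methods name the v2 and v3 kits of 10x Genomics, and which library was made with which is not given in the sources used here. The comparisons of the sexes used the 8 group means with the same term. The 8 genes of the rule and the 13 mitochondrial genes were not tested. P-values were adjusted by Benjamini-Hochberg over all genes tested, and an adjusted p under 0.05 was called. Shares of cells were tested by exact two-sided permutation of genotype within sex and age (1296 permutations, smallest p 0.00154). Normalised CPM are scaled by those factors, and plain CPM by the total UMIs of the class alone.

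The rule for named genes took, per DN comparison, the 8 largest rises and the 8 largest falls among called genes with a mean of at least 10 CPM and a named product, up to 4 called members per list (the 2 most abundant where none was called), a fixed set of PT genes, and 6 genes per direction by lowest p for the other comparisons. Other named genes are list members chosen after their values were seen, as was Gm16010. Some items the rule took are not reported here. Positions are from GENCODE M21 (GRCm38), which matched 30934 of the genes. Replicate numbers come from the labels, which do not say what a number marks, and the block treated them as pairs. Deviations of same-numbered control and DN libraries correlated at 0.577, 0.780, 0.571 and 0.603 in the 4 strata. With 2 libraries per group, each stratum gives a single such value. In the female strata replicate 1 is also the shallow library, so number and depth cannot be told apart there. Replicate libraries of a group differed beyond sampling noise (chi-square per degree of freedom 8.94 to 65.7). Doublets were treated by the 3 genes required at 0 UMIs, and no doublet caller was run. Intervals over mice carry the depth of each library, and counting error is largest in the 4 shallow ones. DESeq2 1.42.0, other scaling and filters, other cell rules, the replicate block and leaving out each library were tried as alternatives. The fit of DN against control was tested on simulated counts. Of 100 genes changed by 1 on the log2 scale it recovered 91% at 6 weeks, 94% at 12 weeks and 100% over both ages. It also called 14, 20 and 23 unchanged genes in these comparisons, with 12008 genes run. The changed genes were drawn from those with a mean above 20 CPM. Of the 269 genes called over both ages 85 lay under 10 CPM, and the recovery was not measured at such levels. The simulation covered no other comparison.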

Additional observations from a re-analysis of the deposited data

Results flagged for a closer look

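The effect of DN differed between females and males in 11 named genes, by the test of the difference itself (female minus male effect, log2 scale). It was lower in females for Cyp4a14 (−6.06), Ugt1a2 (−4.61), Kynu (−3.46), Prlr (−3.01), Cyp4a10 (−2.23) and Gsta2 (−1.90), and higher for Cyp4a12a (3.74), Car3 (3.52), Inmt (3.38), Cyp2e1 (1.85) and Angptl7 (1.5). Adjusted p-values ran from 0.00154 to 0.0371 (edgeR quasi-likelihood test, Benjamini-Hochberg), with 4 mice per genotype and sex. None of the 11 passed in all 26 alternative analyses, and all 11 were lost without the 4 shallow libraries.

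The effect also differed between early and later PT cells of the same mice (early minus later effect, log2 scale). The difference was above 0 for Ly6e (1.51), Slc5a10 (1.29), Hsd17b11 (1.06), Pfn2 (0.87), Acsm1 (0.86) and Trap1 (0.75), and below 0 for Car3 (−5.81), Gc (−5.15), Inmt (−2.37), Ugt3a1 (−1.41), Ugt1a10 (−1.34) and Dnase1 (−0.90). In the later cells of males, control and DN were at 201 and 46.4 CPM for Ly6e and at 247 and 53.6 CPM for Hsd17b11. In the early cells of males Ly6e was at 87.5 and 69.5 CPM, and Hsd17b11 was called lower in DN by 1.89-fold (edgeR).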

How the results depend on the processing

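Mouse numbers (2 per group) and the 4 shallow libraries limit these results. The early share of PT cells changed sign when cells were thinned to 1000 UMIs (0.926 points), without the 4 shallow libraries (1.66) and without control female 6 weeks replicate 1 (range −3.78 to 1.31 when each library was left out). The share of kept barcodes lost its unadjusted p under 0.05 after thinning (0.453), at most 30% mitochondrial UMIs (3.54), and 0 UMIs of 5 other tubule genes (1.17), and without control female 6 weeks replicate 1 or any 1 of the 4 DN male libraries (range 3.03 to 4.65 over all libraries left out). The counts of called genes moved most. At 6 weeks (52) they were 108 with DESeq2, 257 with no expression filter, 30 with no term for the shallow libraries, 171 with the replicate block, 16 without the shallow libraries and 30 with early UMIs at least 3 times the later ones, and 18 to 61 with 1 library left out (27, 26 and 18 without control male 6 weeks replicate 1, replicate 2 and DN male 6 weeks replicate 1). At 12 weeks (73) the same settings gave 154, 508, 31, 322, 26 and 30, and 19 to 102 (37 and 33 without control female 12 weeks replicates 1 and 2, 27 without control male replicate 2, 36 without DN female replicate 2, 34 and 19 without DN male replicates 1 and 2). Over both ages (269) they were 685 with no filter, 137 with no shallow-library term, 688 with the block, 147 at the 3-fold rule, 178 within males and 10 within females, and 181 to 281 with 1 library left out. For the change with age (0) they were 104 with no filter and 2 with the block, 0 to 1 otherwise (1 without control female or control male 12 weeks replicate 2), and for age in controls (0) 1 with DESeq2, 109 with no filter and 0 to 1 (1 without control male 6 weeks replicate 2). For sex in controls (360) they were 541 with DESeq2, 910 with no filter, 162 with no shallow-library term, 123 without the shallow libraries, 138 at the 3-fold rule and 168 with the tubule genes at 0, and 40 to 455 (46 and 40 without control female replicate 2 at 6 and 12 weeks, 223 and 185 without control male replicate 1). For the difference of the DN effect between the sexes (12) they were 32, 93, 6, 0 and 3 under the first 5 of these settings and 7 at 30% mitochondrial UMIs, and 1 to 20 (1 without either control female replicate 2, 7 without control male 12 weeks replicate 1 or 2 or DN female 12 weeks replicate 1, 3 and 2 without DN female replicate 2 at 6 and 12 weeks, 20 without DN male 6 weeks replicate 2). There Car3 ran from −0.66 to 7.66 with 1 library left out, and changed sign without control female (−0.66) or DN female (−0.35) 12 weeks replicate 2. For early against later cells (230) the count was 569 with no filter and 153 to 245 (153 without DN male 12 weeks replicate 1). Of the named genes called over both ages 26 of 41 were called under every alternative that gave a value (up to 27), as were 3 of 24 at 6 weeks (Slc5a10, Lpl, Ugt3a1), 7 of 26 at 12 weeks, 8 of 12 for sex in controls, 0 of 11 for the DN effect between the sexes and 11 of 12 for early against later cells (up to 26). The block, which pairs mice by number, was run on the DN comparisons by age and over both ages and ended no named call there. It was not run on the comparisons of the sexes, and the early and later cells were already compared within each library. The cause of these changes was not tested.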

Other observations

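Some genes with large changes in early PT cells were not described above. Acsf2, an acyl-CoA synthetase, was at 2.90 to 18.9 normalised CPM in control and 17.8 to 33.6 in DN (log2 fold change 1.48 ± 0.18 over both ages, edgeR adjusted p = 0.000227). Ces1f, a carboxylesterase, was at 445 to 607 in control males and 9.31 to 109 in DN males, and at most 3.88 in any female library. Zbtb16, a zinc finger transcription factor, was higher over both ages (2.11 ± 0.45, edgeR adjusted p = 0.0184, lost in 4 of 27 alternatives) with ranges of 0.774 to 41.5 and 0 to 40.8 that overlapped. Acy3, an aminoacylase of the later segments, fell from a median of 558 to 167 normalised CPM (−1.40 ± 0.19, edgeR adjusted p = 0.000455), and it was more abundant in later PT cells (1000 CPM against 384 CPM over all libraries).

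Of 8 PT genes listed as female-biased, only Prlr and Slc22a29 were called higher in control females, while Acsm2 and Ttr were called lower, so these libraries do not bear out the list's name. In DN over both ages 2 of the 8 were lower, Cyp2j11 and Gm4450 (log2 fold changes −0.83 and −1.05), and 0 higher, with a median of −0.27. Neither of these 2 was called between the sexes in controls, and the call for Cyp2j11 in DN was lost in 4 of 27 alternatives. Transcripts of podocytes summed to 26.1 ± 19.7 CPM in control and 17.1 ± 15.7 CPM in DN, of stromal cells to 19.9 ± 18.5 and 20.0 ± 15.4 CPM, of principal cells to 432 ± 205 and 356 ± 221 CPM, of descending thin limb to 22.2 ± 17.4 and 30.9 ± 8.16 CPM, and of mitotic cells to 26.1 ± 44.9 and 27.4 ± 34.6 CPM. Of these 5 lists edgeR called a gene over both ages or at either age in 1, the principal cells (Fxyd4 at 12 weeks). At 12 weeks DESeq2 called 1 descending thin limb gene and the block 1 higher, and over both ages 3 of the 5 lists had 0 genes at an unadjusted p under 0.05.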
